A study of Mus musculus with 9 samples.

Results

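The 10 genes Slc2a1, Slc2a3, Hk1, Hk2, Pfkp, Aldoa, Pgk1, Eno1, Pkm and Ldha, which bring glucose into the cell and carry it down glycolysis to lactate, were examined in dendritic cells (DCs) sorted from mouse spleens. They were taken by name from the 54532 genes of the deposited expression table, and 11 of its rows carry these names because Aldoa is listed at 2 neighbouring loci. T-DCs expressed lower levels of both glucose transporters than N-mDCs: Slc2a1 fell to 0.465 times and Slc2a3 to 0.273 times the N-mDC mean. Both falls passed the test, as did falls in 10.3% of all tested genes. That of Slc2a1 no longer passed in 14 of 23 alternative fits. The T-mDC means were also low, at 0.55 and 0.308 times the N-mDC mean, but these falls did not pass. T-DCs and T-mDCs differed by only -0.26 for Slc2a1 and -0.20 for Slc2a3 on the log2 scale, which did not pass either. None of the 8 enzymes passed the test in any comparison. In all 3 T-DC samples 4 enzymes, Hk1, Aldoa, Pgk1 and Ldha, were above every N-mDC sample, as were 16.0% of all tested genes. Hk1 was at the level of the mature DCs in T-DC sample 1 (6.40 FPKM, a read density corrected for gene length and library size) and far above it in T-DC samples 2 and 3 (53.7 and 75.6 FPKM), which were also rich in red cell transcripts.

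There were 3 bulk RNA-seq libraries in each of 3 groups. N-mDCs (N_DC_hi in the table) were mature conventional DCs from the spleens of normal mice, without treatment. T-DCs (T_DC_lo) were the CD11c+ cells with low surface MHCII from leukemic mice, and T-mDCs (T_DC_hi) were the mature conventional DCs of leukemic mice. The leukemia was a T cell acute lymphoblastic leukemia (T-ALL) started with a retrovirus that carried the intracellular domain of Notch1 and GFP (MSCV-ICN1-IRES-GFP) in c-kit+ marrow cells of C57BL/6J mice. GFP+ leukemia cells were then passed into C57BL/6J or C57B6.SJL mice that were not irradiated, so the recipients kept their own DCs, and the strain of the mice behind each sample is not given in the sources used here. Female mice of 6 to 8 weeks were used, and the cells were sorted on day 15. Red cells were lysed with ammonium chloride, and CD11c+ cells were enriched with beads before the T-DCs were sorted. Nothing in these sources says whether the 3 samples of a group came from separate mice, so p-values measure the spread between these samples, which may be technical.

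Glycolysis splits glucose into pyruvate, yielding a little ATP and building blocks for growth without the use of oxygen. Glucose enters through facilitative carriers of the Slc2a family, is trapped by hexokinase, is committed to the pathway by phosphofructokinase, and leaves as lactate when lactate dehydrogenase reduces pyruvate. Activated DCs are known to raise glycolysis early in their maturation, and many genes of the pathway are targets of the transcription factors Hif1a and Myc. Red cells depend on glycolysis, and they use the muscle or liver forms of several of its enzymes.

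Promoter windows are shown for the members on which the results turn: Slc2a1, the transporter with a window that changed, Hk1 at both of its listed starts, since it had the widest spread, and Pgk1 and Ldha, textbook targets of Hif1a, for comparison. Each window runs from 250 bases before to 50 bases after a RefSeq start (build GRCm38.p6), 5′ to 3′ on the strand of the gene. Capitals mark ACGTG or GCGTG on either strand, the cores of the motif that Hif1a binds, and matches that overlap, on the same strand or on opposite ones, were each counted. Slc2a3 has no window in the table used.
Slc2a1, chr4:119108495-119108794, plus strand: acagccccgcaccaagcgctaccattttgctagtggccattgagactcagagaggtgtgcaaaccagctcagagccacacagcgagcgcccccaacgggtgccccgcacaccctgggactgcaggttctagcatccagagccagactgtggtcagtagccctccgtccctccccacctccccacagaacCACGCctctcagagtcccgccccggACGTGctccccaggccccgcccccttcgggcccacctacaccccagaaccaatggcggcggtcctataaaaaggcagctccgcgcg
Hk1, downstream start, chr10:62340372-62340671, minus strand: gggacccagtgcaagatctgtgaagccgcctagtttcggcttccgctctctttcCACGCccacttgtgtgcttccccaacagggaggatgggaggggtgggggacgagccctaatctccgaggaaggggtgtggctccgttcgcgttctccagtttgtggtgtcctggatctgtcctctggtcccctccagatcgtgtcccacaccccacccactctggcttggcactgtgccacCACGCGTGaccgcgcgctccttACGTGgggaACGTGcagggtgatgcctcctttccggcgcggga
Hk1, upstream start, chr10:62379859-62380158, minus strand: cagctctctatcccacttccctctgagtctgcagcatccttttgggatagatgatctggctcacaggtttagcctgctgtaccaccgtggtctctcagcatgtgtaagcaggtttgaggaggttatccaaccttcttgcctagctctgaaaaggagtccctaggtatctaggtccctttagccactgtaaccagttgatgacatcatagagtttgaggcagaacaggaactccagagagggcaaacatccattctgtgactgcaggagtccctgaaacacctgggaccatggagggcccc
Pgk1, chrX:106186850-106187149, plus strand: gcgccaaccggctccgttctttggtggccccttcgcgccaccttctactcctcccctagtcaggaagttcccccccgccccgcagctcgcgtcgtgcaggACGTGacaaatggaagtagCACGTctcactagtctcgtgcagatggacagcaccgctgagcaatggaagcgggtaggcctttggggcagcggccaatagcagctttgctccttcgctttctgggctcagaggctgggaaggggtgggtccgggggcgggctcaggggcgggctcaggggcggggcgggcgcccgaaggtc
Ldha, chr7:46845554-46845853, plus strand: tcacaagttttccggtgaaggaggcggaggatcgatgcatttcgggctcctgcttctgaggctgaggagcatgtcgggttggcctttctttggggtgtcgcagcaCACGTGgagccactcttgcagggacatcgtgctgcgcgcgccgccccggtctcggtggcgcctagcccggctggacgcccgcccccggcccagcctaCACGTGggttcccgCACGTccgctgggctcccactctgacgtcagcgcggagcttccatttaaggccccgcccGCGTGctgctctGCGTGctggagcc

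The 9 members with a window had 16 windows, and 13 of them held 1 of the 2 motif cores or both, at least 1 window for each of the 9 members. Over all 32851 promoter windows of this length, 43.8% did, with 19.6% holding ACGTG and 32.4% GCGTG. The Ldha window shown had 7 matches, the downstream Hk1 window had 5, and the Slc2a1 and Pgk1 windows had 2 each. The upstream Hk1 window had 0. AGATAA, a form of the motif that GATA factors bind, was searched on both strands and was in 0 of the 16 windows, against 11.2% of all windows. Other forms of that motif were not searched, so this count does not show that the windows lack it. Some windows of the same gene, in Aldoa and in Eno1, overlap and share matches, so the 16 windows are not independent. The matches are of letters, not sites shown to be bound.

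Levels are given in FPKM, the reads on a gene divided by its length and by a library size set by the authors. Reads on genes ranged from 15360815 to 18440913 per sample, and no member rested on fewer than 211 reads in a sample. Differences were tested with limma on log2(FPKM + 1) over 12746 genes, those reaching an FPKM of 1 in 3 or more libraries, and all 10 members passed this filter. A gene was called at a Benjamini-Hochberg adjusted p under 0.05, and intervals are at the 95% level. Hemoglobin genes took 0.0422% of reads in T-DC sample 1 but 3.82% and 3.0% in T-DC samples 2 and 3, against at most 0.405% in N-mDCs and 0.0140% in T-mDCs. A list of 10 red cell genes summed to 615, 58340 and 42328 FPKM in T-DC samples 1 to 3, to 105 to 5374 in N-mDCs and to 15.6 to 183 in T-mDCs. The 10 DC maturation genes, among them Ccr7 and Cd83, summed to 109 to 233 FPKM in T-DCs, 1399 to 3097 in N-mDCs and 1861 to 2608 in T-mDCs. A list of 12 conventional DC genes summed to 771, 366 and 202 FPKM in T-DC samples 1 to 3. Its sums were 844 to 1010 FPKM in N-mDCs and 877 to 1020 in T-mDCs. For T-DCs, limma called a fall in 8 of the 12 against N-mDCs and in 9 of the 12 against T-mDCs. Of all tested genes, 8.79% were called as falls against T-mDCs. Itgax, which encodes CD11c, had 152, 90.4 and 43.0 FPKM in T-DCs and 158 to 230 FPKM in both mature groups. A list of 10 neutrophil genes summed to 11.5, 4399 and 1541 FPKM in T-DC samples 1 to 3 and to 9.62 to 684 elsewhere, and 14 cell cycle genes to 196, 1662 and 1773 FPKM, against 205 to 432 elsewhere, so these followed the red cell genes. The lists that follow were highest in N-mDCs. The 6 NK cell genes had sums of 128 to 179 FPKM in N-mDCs, with T-DCs at 3.92 to 20.5 and T-mDCs at 22.8 to 33.8, and 6 of 6 were called lower in T-DCs and 5 of 6 in T-mDCs than in N-mDCs. The 6 plasmacytoid DC genes summed, in the same order of groups, to 287 to 648, 146 to 193 and 63.5 to 158 FPKM, with 2 of 6 called lower in each leukemic group. Of 14 T cell genes, 11 were tested and 2 and 1 were called lower, with sums of 46.0 to 121, 5.67 to 95 and 15.3 to 19.6 FPKM. The 7 B cell genes summed to 803 to 3763, 495 to 3751 and 358 to 1886 FPKM, with 5 of 7 called lower in T-DCs and 0 in T-mDCs, and 11 genes of red pulp macrophages and monocytes to 1806 to 3740, 896 to 3646 and 592 to 1602 FPKM, with 1 lower in T-DCs and 0 in T-mDCs. No gene of these lists was at 0 in all samples. The counts of these lists stand against 10.3% of all tested genes called lower in T-DCs, and 1.52% in T-mDCs, than in N-mDCs. T-mDC samples 2 and 3 were close in many of the list sums. The DC maturation genes summed to 2552 and 2608 FPKM in them, and the B cell genes to 358 and 363. In T-mDC sample 1 these sums were 1861 and 1886 FPKM. How alike the 2 samples were beside other pairs is not given here. Fewer cells of a type and less RNA per cell cannot be told apart in these bulk samples.

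Between T-DCs and N-mDCs, 0 of the 10 members were called higher and 2 lower, where 6.10% of all tested genes were called higher and 10.3% lower. The fitted difference was above 0 for 6 members and below 0 for 4, with a median of 0.29 on the log2 scale against 0.05 over all tested genes. An unadjusted p under 0.05 was reached by 6 of the 10 members and by 35.1% of all tested genes. All 3 T-DC samples were above all 3 N-mDC samples for 4 members, Hk1, Aldoa, Pgk1 and Ldha, and below them for 2, Slc2a1 and Slc2a3. Over all tested genes such a separation was seen in 16.0% upward and 16.4% downward.

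Between T-DCs and T-mDCs limma called 0 members, while 2 members, Hk1 and Aldoa, had an unadjusted p under 0.05, as did 30.1% of all tested genes. Among all tested genes 5.44% were called higher and 8.79% lower, 693 and 1120 genes, which became 376 and 1339 with TPM values and 478 and 1432 with voom on the recovered reads. The median difference of the members was -0.13, against 0.07 for all tested genes. Hk1 alone had its T-DC samples above all T-mDC samples, with 6.40 against 6.38 FPKM at the nearest, and 0 members had them below. For all tested genes these shares were 16.8% and 18.1%. The same T-DC samples enter both comparisons. Rescaling to TPM moved the median of all tested genes from 0.07 to -0.23 here, and from 0.03 to 0.24 for T-mDCs against N-mDCs.

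T-mDCs and N-mDCs, the mature cells with and without leukemia, differed in 0 members by limma, with 3 members (Slc2a1, Slc2a3 and Pgk1) at an unadjusted p under 0.05, against 16.7% of all tested genes. Called genes were few here, 0.690% higher and 1.52% lower, or 88 and 194 genes, which became 49 and 50 with TPM values. The samples did not overlap for Pfkp, Pgk1 and Ldha, which were above in T-mDCs, or for Slc2a1 and Slc2a3, which were below, where 19.3% and 15.7% of all tested genes were separated in the same way. In the test over the 3 groups together, 1 of the 10 members, Slc2a3, was called, and 18.0% of all tested genes were.

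**Figure D1:**
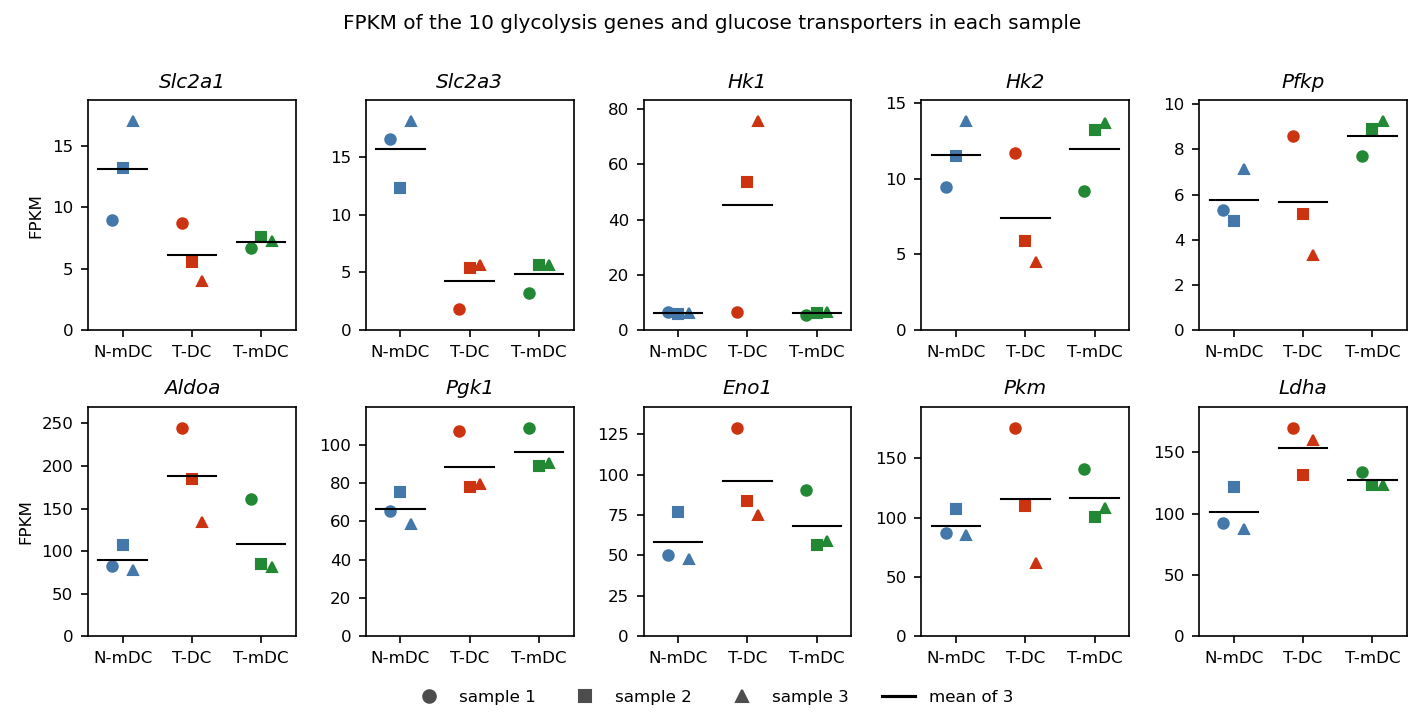
FPKM (vertical axes, from 0) of the 10 members in each of the 9 samples, with a marker shape for each sample number and a line at the mean of 3. Both transporters were lowest in leukemic mice, and Hk1 stood at 53.7 and 75.6 FPKM in T-DC samples 2 and 3 and at 6.40 in T-DC sample 1.

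The glucose transporters came first in the pathway and held the only calls. Slc2a1 (GLUT1; ENSMUSG00000028645, chr4:119108711-119137983, plus strand), the carrier of most proliferating cells, had 8.94, 13.2 and 17.0 FPKM in N-mDCs, 8.76, 5.52 and 3.96 in T-DCs, and 6.72, 7.57 and 7.27 in T-mDCs. Every sample from leukemic mice was below every N-mDC sample, with T-DC sample 1 only just below N-mDC sample 1. The difference between T-DCs and N-mDCs was -1.0 ± 0.29 (SE) on the log2(FPKM + 1) scale, adjusted p = 0.0474. The difference of T-DCs from T-mDCs missed the threshold (-0.26, 95% interval -0.92 to 0.39, adjusted p = 0.570), as did that of T-mDCs from N-mDCs (-0.74, 95% interval -1.40 to -0.08, adjusted p = 0.246). The Slc2a1 call was lost in 14 of 23 alternative fits, among them the one without T-DC samples 2 and 3 (-0.49, adjusted p = 0.390), the one with red cell genes as a covariate (-0.68, adjusted p = 0.321) and the one with values rescaled to TPM, which gives every library the same total (-1.18, adjusted p = 0.0805).

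Slc2a3 (GLUT3; ENSMUSG00000003153, chr6:122727809-122801640, minus strand), a carrier with high affinity for glucose that is typical of neurons and white blood cells, showed 16.6, 12.3 and 18.1 FPKM in N-mDCs, 1.86, 5.40 and 5.62 in T-DCs and 3.19, 5.66 and 5.63 in T-mDCs. All N-mDC samples were above all samples of leukemic mice, whose 2 groups overlapped each other. The NK cell list (128 to 179 FPKM in N-mDCs, at most 33.8 elsewhere) and the plasmacytoid DC list (287 to 648 FPKM, at most 193 elsewhere) were separated in the same way as both transporters, and the part of these cells in the transporter differences was not tested. T-DCs fell by 1.74 ± 0.35 (SE) on the log2 scale from N-mDCs, adjusted p = 0.0136. Against T-mDCs the difference was -0.20 (95% interval -1.01 to 0.60, adjusted p = 0.726). For T-mDCs against N-mDCs it was -1.53 (95% interval -2.34 to -0.73), which missed the threshold with an adjusted p of 0.0694. The fall from N-mDCs to T-DCs was called in 21 of 23 alternatives. Without T-DC samples 2 and 3 it was -2.53 (adjusted p = 0.0199), and the call was lost without N-mDC sample 1 (adjusted p = 0.0523) or N-mDC sample 3 (adjusted p = 0.0542).

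Of the 10 other Slc2a genes listed, 3 passed the filter and 0 were called in any comparison. Slc2a6, a carrier of activated white blood cells, had the highest FPKM of the family in the 7 samples other than T-DC samples 2 and 3, and ranged from 16.2 to 34.5 over all 9. Slc2a4 (GLUT4), the insulin-responsive carrier of muscle and fat, had 26.5 and 17.8 FPKM in T-DC samples 2 and 3 and at most 0.286 FPKM in the other 7 samples, so it could not pass the filter. It then made up 40.0% and 34.4% of the summed Slc2a FPKM of those samples, the ones with 3.82% and 3.0% hemoglobin reads. What part red cell RNA had in this was not tested.

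**Figure D2:**
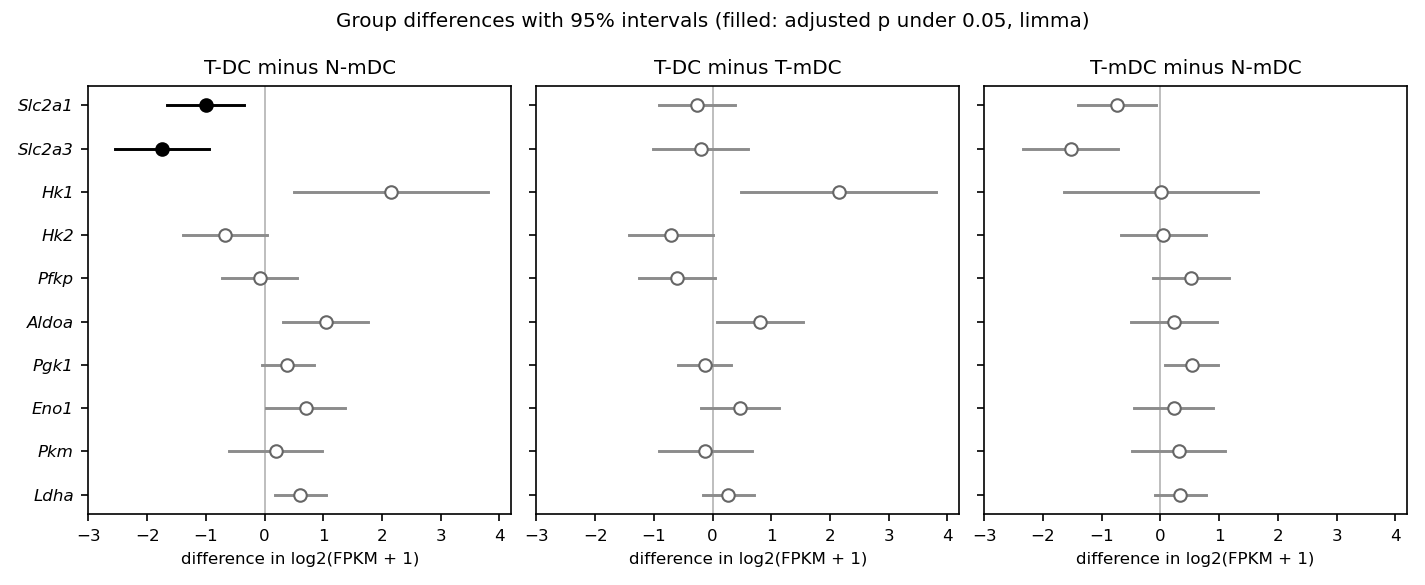
Differences in log2(FPKM + 1) between groups for the 10 members (points) with 95% intervals (bars) from limma, 3 samples a group. Filled points passed an adjusted p of 0.05, and only Slc2a1 and Slc2a3 in T-DCs against N-mDCs did.

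Hexokinase adds the first phosphate to glucose. Hk1 (ENSMUSG00000037012, chr10:62268855-62379908, minus strand), the widespread form and the one that red cells rely on, had 6.39, 5.76 and 6.02 FPKM in N-mDCs, 6.40, 53.7 and 75.6 in T-DCs, and 5.61, 6.30 and 6.38 in T-mDCs. Its level was even over 7 samples and high in T-DC samples 2 and 3, and T-DC sample 1 was hardly above the highest N-mDC and T-mDC samples. The fitted difference was 2.16 ± 0.73 (SE) against N-mDCs and 2.15 against T-mDCs, and neither passed (adjusted p = 0.0742 and 0.0841). It was 0.07 against N-mDCs without T-DC samples 2 and 3, and 3.20 (adjusted p = 2.31e-05) without T-DC sample 1. With the red cell genes as a covariate the difference from T-mDCs turned to -0.28. Those genes summed higher in every T-DC sample than in any T-mDC sample, so that fit cannot separate them from the group. With it 0 genes were called against T-mDCs, in place of 1813. The samples high in Hk1 were those high in hemoglobin, and the part of red cell RNA in Hk1 was not tested.

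Hk2 (ENSMUSG00000000628, chr6:82725025-82774454, minus strand), the inducible form of activated and tumour cells, had 9.49, 11.5 and 13.8 FPKM in N-mDCs, 11.7, 5.89 and 4.50 in T-DCs and 9.16, 13.2 and 13.7 in T-mDCs. T-DC samples 2 and 3 were below all other samples, and T-DC sample 1 lay within the range of the mature DCs. The difference was -0.67 against N-mDCs (adjusted p = 0.167) and -0.71 against T-mDCs (adjusted p = 0.172). Without T-DC sample 1 both passed, at adjusted p = 0.00946 and 0.00911. Without T-DC samples 2 and 3 the differences were 0.03 against N-mDCs and -0.01 against T-mDCs. Hk3, a form of myeloid cells, held 56.4% to 63.7% of hexokinase FPKM in the 7 samples other than T-DC samples 2 and 3, where Hk1 held 66.0% and 82.9%. The log2 ratio of Hk2 to Hk1 was 0.78, -2.99 and -3.80 in T-DCs, 0.82 ± 0.29 (SD, n = 3) in N-mDCs and 0.86 ± 0.21 (SD, n = 3) in T-mDCs. An exact permutation test over the 1680 ways to assign 9 samples to 3 groups gave p = 0.10, or 0.196 adjusted over the 5 ratios compared, and the smallest p possible is 0.00357.

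**Figure D3:**
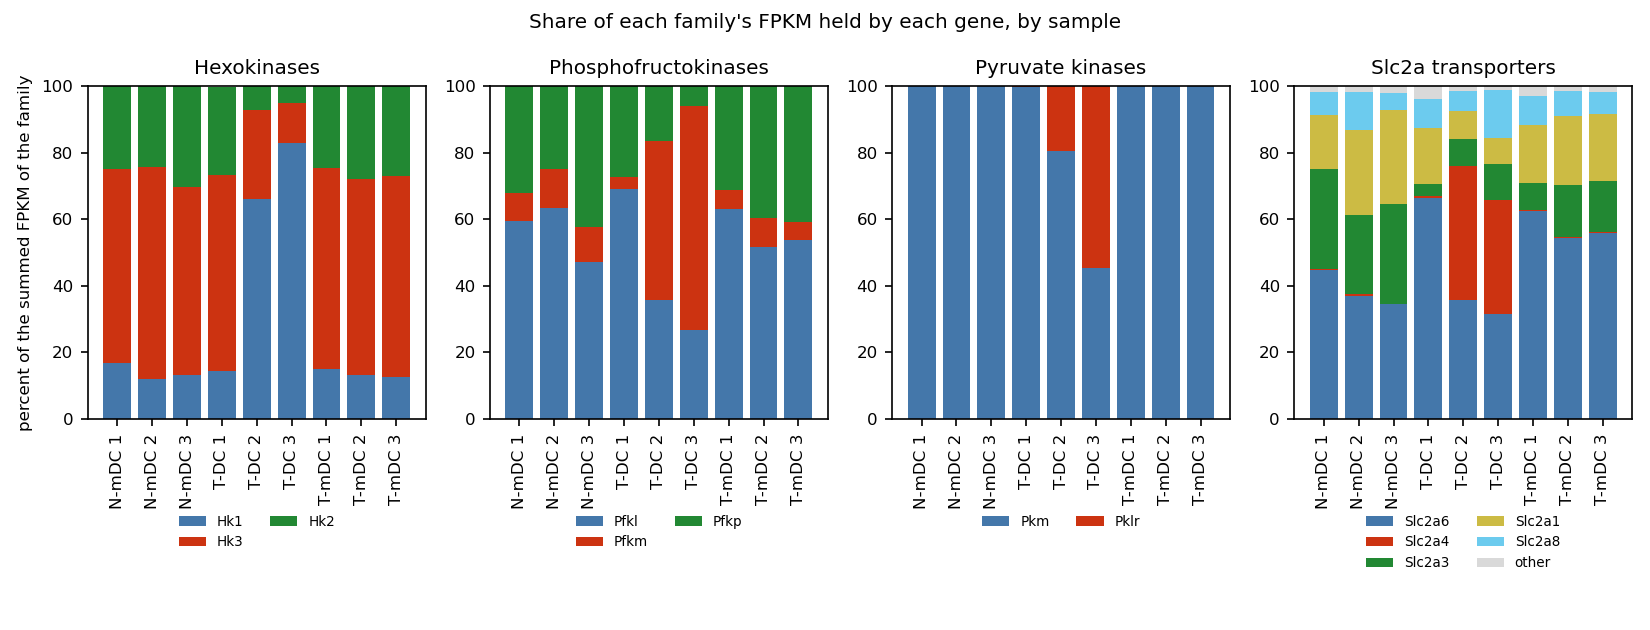
Share of the summed FPKM (percent, stacked to 100) that each gene held within 4 families, for each of the 9 samples; genes never above 5% are pooled as other. T-DC samples 2 and 3 stand out by Hk1 (66.0% and 82.9%), Pfkm (47.7% and 67.2%), Pklr (19.4% and 54.6%) and Slc2a4 (40.0% and 34.4%).

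Phosphofructokinase sets the pace of the pathway. Pfkp (ENSMUSG00000021196, chr13:6579768-6648777, minus strand), the platelet form, had 5.31, 4.85 and 7.13 FPKM in N-mDCs, 8.57, 5.13 and 3.31 in T-DCs and 7.70, 8.88 and 9.24 in T-mDCs. All T-mDC samples were above all N-mDC samples, while T-DCs spread over both ranges. The differences were -0.08 for T-DCs against N-mDCs (adjusted p = 0.862), -0.60 against T-mDCs (adjusted p = 0.194) and 0.52 for T-mDCs against N-mDCs (adjusted p = 0.40). Pfkl, the liver form, had 7.95 to 21.7 FPKM, and the ratio of Pfkp to Pfkl missed the threshold in the exact permutation test (adjusted p = 0.196). Pfkm, the muscle form, had 14.9 and 36.4 FPKM in T-DC samples 2 and 3 and 1.2 to 2.29 FPKM in the other 7.

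Aldoa (ENSMUSG00000030695, chr7:126795234-126800751, minus strand), which cleaves the 6-carbon sugar, had 82.1, 107 and 78.5 FPKM in N-mDCs, 245, 185 and 134 in T-DCs and 161, 85.4 and 81.4 in T-mDCs. T-DCs were above all N-mDCs, and overlapped T-mDCs through T-mDC sample 1. The difference of 1.04 ± 0.32 (SE) from N-mDCs missed the threshold (adjusted p = 0.0578), and that of 0.81 from T-mDCs also did not pass (adjusted p = 0.132). Leaving out T-mDC sample 1 brought both past it (1.04, adjusted p = 0.0352, and 1.12, adjusted p = 0.0394). Quantile normalization also did so against N-mDCs (1.00, adjusted p = 0.0466). The difference did not pass in 20 of 23 alternatives against N-mDCs and in 21 of 23 against T-mDCs. With values rescaled to TPM it was 0.94 (adjusted p = 0.12) and 0.48 (adjusted p = 0.402). The second locus named Aldoa (ENSMUSG00000114515, chr7:126800790-126809108), just upstream, had between 0.0699 and 3.63 FPKM, on 1 to 45 reads.

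Pgk1 (ENSMUSG00000062070, chrX:106187100-106203699, plus strand), the first step that yields ATP, had 65.6, 75.4 and 58.5 FPKM in N-mDCs, 107, 78.1 and 79.5 in T-DCs and 109, 89.2 and 90.7 in T-mDCs. Both groups from leukemic mice were above all N-mDC samples, T-DC sample 2 by little. Neither difference from N-mDCs passed the test, at 0.39 for T-DCs (adjusted p = 0.182) and 0.53 for T-mDCs (adjusted p = 0.221). T-DCs and T-mDCs overlapped (-0.13, 95% interval -0.58 to 0.31, adjusted p = 0.673).

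Eno1 (ENSMUSG00000063524, chr4:150236721-150248879, plus strand), the common enolase, had 50.5, 77.0 and 47.9 FPKM in N-mDCs, 129, 83.4 and 75.2 in T-DCs and 90.2, 56.4 and 59.0 in T-mDCs. The 3 groups overlapped, and the differences were 0.70 for T-DCs against N-mDCs (adjusted p = 0.131) and 0.47 against T-mDCs (adjusted p = 0.321). A near copy of Eno1, Eno1b, had 3.70 to 11.5 FPKM, and how reads that match both were shared out is not given in the sources used here. Eno3, the muscle enolase, was called higher in T-DCs than in T-mDCs, with 210, 119 and 86.2 against 62.8, 48.1 and 46.3 FPKM (1.30, adjusted p = 0.0322). Eno2, the neuronal enolase, went the other way: 0.475, 0.603 and 0.0700 FPKM in T-DCs, 6.38, 2.23 and 4.69 in N-mDCs and 7.58, 14.2 and 14.1 in T-mDCs. It fell by 1.92 against N-mDCs (adjusted p = 0.00933) and by 3.20 against T-mDCs (adjusted p = 0.00187).

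Pkm (ENSMUSG00000032294, chr9:59656368-59679375, plus strand), the pyruvate kinase of muscle and of most growing cells, had 87.2, 107 and 85.7 FPKM in N-mDCs, 176, 110 and 62.0 in T-DCs and 141, 101 and 108 in T-mDCs. T-DC samples 1 and 3 were its highest and its lowest value of all 9. The difference was 0.19 against N-mDCs (95% interval -0.60 to 0.98, adjusted p = 0.730) and -0.12 against T-mDCs (95% interval -0.91 to 0.67, adjusted p = 0.844). Pklr, the form of liver and red cells, was at 26.4 and 74.7 FPKM in T-DC samples 2 and 3 and at 0.794 FPKM or less in the other 7, and so was not tested. The table gives 1 value per gene and does not separate the spliced forms of Pkm.

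Ldha (ENSMUSG00000063229, chr7:46841475-46855627, plus strand), which turns pyruvate into lactate, had 92.3, 122 and 87.8 FPKM in N-mDCs, 170, 131 and 160 in T-DCs and 134, 123 and 123 in T-mDCs. The samples of both leukemic groups were above all N-mDC samples, and T-DC sample 2 lay within the T-mDC range. The difference from N-mDCs was 0.61 ± 0.19 (SE, 95% interval 0.17 to 1.05, adjusted p = 0.0619). It passed without N-mDC sample 2 (0.75, adjusted p = 0.0354), but did not pass in 21 of 23 alternatives. Against T-mDCs it was 0.26 (adjusted p = 0.391), and its sign turned with values rescaled to TPM (-0.06, above that scale's median of -0.23) or quantile normalized (-0.03). Ldhb, which favours the way back to pyruvate, had 2.10 to 7.05 FPKM. The log2 ratio of Ldha to Ldhb averaged 5.24 ± 0.43 (SD, n = 3) in T-DCs, 3.99 ± 0.49 in N-mDCs and 4.59 ± 0.32 in T-mDCs, with p = 0.0214 by the exact permutation test and 0.107 once adjusted over the 5 ratios. For Slc2a3 to Slc2a1 and Pkm to Ldha the adjusted p was 0.527 and 0.632.

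The members did not move as one. Over the 9 samples, which share groups and libraries, Pearson's r of log2(FPKM + 1) was 0.95 between Aldoa and Eno1, 0.84 between Eno1 and Ldha and 0.77 between Pgk1 and Ldha. Slc2a3 ran the other way, at -0.93 with Pgk1 and -0.87 with Ldha. Hk1 and Hk2 had an r of -0.91, which follows T-DC samples 2 and 3. The genes outside the list most like the members' mean standardized profile were Calhm2 (r = 0.981), Pisd (0.967), Tor4a (0.955), Tnfaip8l2 (0.955) and Sept9 (0.953). Egr1, Bambi and Zcchc24 were most like Slc2a1 (0.978, 0.975 and 0.973), BC024978, Tmem185b and Zfp951 most like Hk2 (0.971, 0.962 and 0.953), and Hsdl1, Cog8 and Rad9a most like Ldha (0.985, 0.981 and 0.977). These are descriptions over 9 samples, picked as the highest of 12746 genes.

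**Figure D4:**
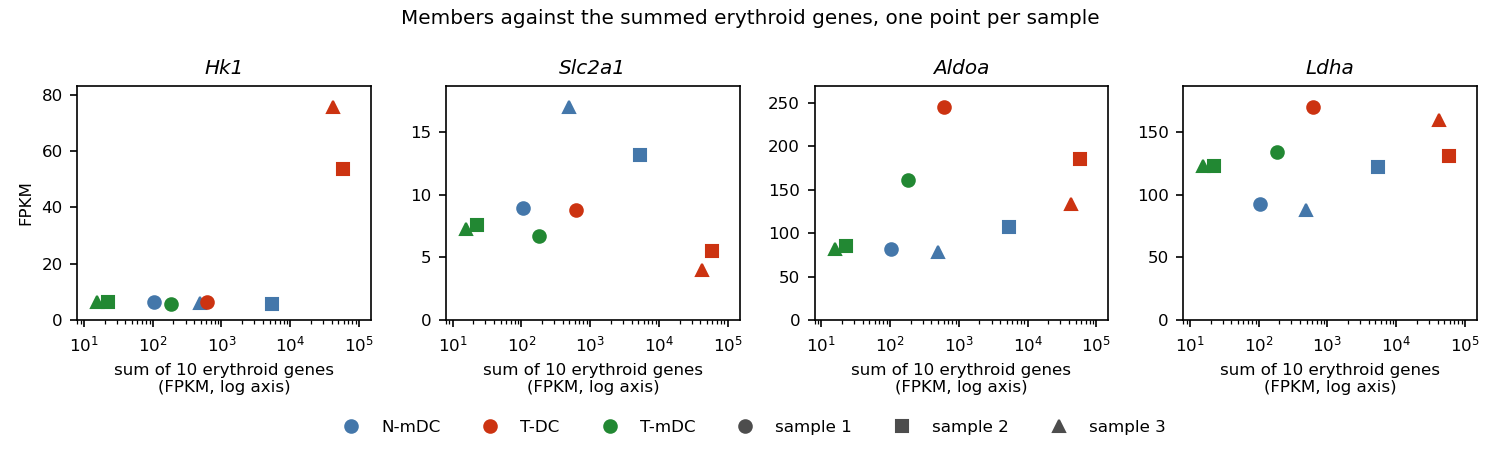
FPKM of Hk1, Slc2a1, Aldoa and Ldha (vertical axes, from 0) against the summed FPKM of 10 red cell genes (horizontal, log axis), 1 point per sample. T-DC samples 2 and 3 lie far right at 58340 and 42328, with Hk1 at 53.7 and 75.6 FPKM, while N-mDC sample 2 at 5374 had Hk1 at 5.76.

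The steps between the members followed a list of 22 other glycolysis enzymes, of which 15 were tested. In T-DCs against N-mDCs, 2 of the 15 were called higher and 2 lower, and against T-mDCs 1 higher and 1 lower. Counts of this and the following lists stand against the shares of all tested genes, which were 6.10% higher and 10.3% lower when T-DCs were set against N-mDCs, or 5.44% and 8.79% when set against T-mDCs. Tpi1, which interconverts the 3-carbon sugars, rose from 26.7, 44.7 and 25.3 FPKM in N-mDCs to 85.6, 66.7 and 81.0 FPKM in T-DCs (1.28, adjusted p = 0.0188), with 66.5, 42.4 and 38.8 FPKM in T-mDCs (0.68, adjusted p = 0.146). Pgam1, the phosphoglycerate mutase, rose from 43.7, 44.8 and 40.4 FPKM to 142, 84.1 and 66.9 FPKM (1.09, adjusted p = 0.0346), and T-mDCs had 111, 75.1 and 76.1 FPKM. The call was kept in 18 of 23 alternatives for Tpi1 and in 11 of 23 for Pgam1, and without T-DC samples 2 and 3 the adjusted p was 0.0923 for Tpi1 and 0.0254 for Pgam1. Aldoc, the brain aldolase, fell from 1.96, 2.47 and 1.89 to 1.30, 1.01 and 0.565 FPKM (-0.68, adjusted p = 0.0440). Gpi1, which follows hexokinase, had 44.4 to 75.6 FPKM and differed by 0.09 (adjusted p = 0.814). Gapdh, the reference gene of the study's qRT-PCR, had 2.6 to 15 FPKM, well under its neighbours Tpi1 and Pgk1. It was highest in T-DC sample 3, and differed by 0.44 from N-mDCs (adjusted p = 0.488) and 0.72 from T-mDCs (adjusted p = 0.288). Gapdh has many near copies in the genome, and how reads that match them were counted is not given in the sources used here, so its level is uncertain.

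**Figure D5:**
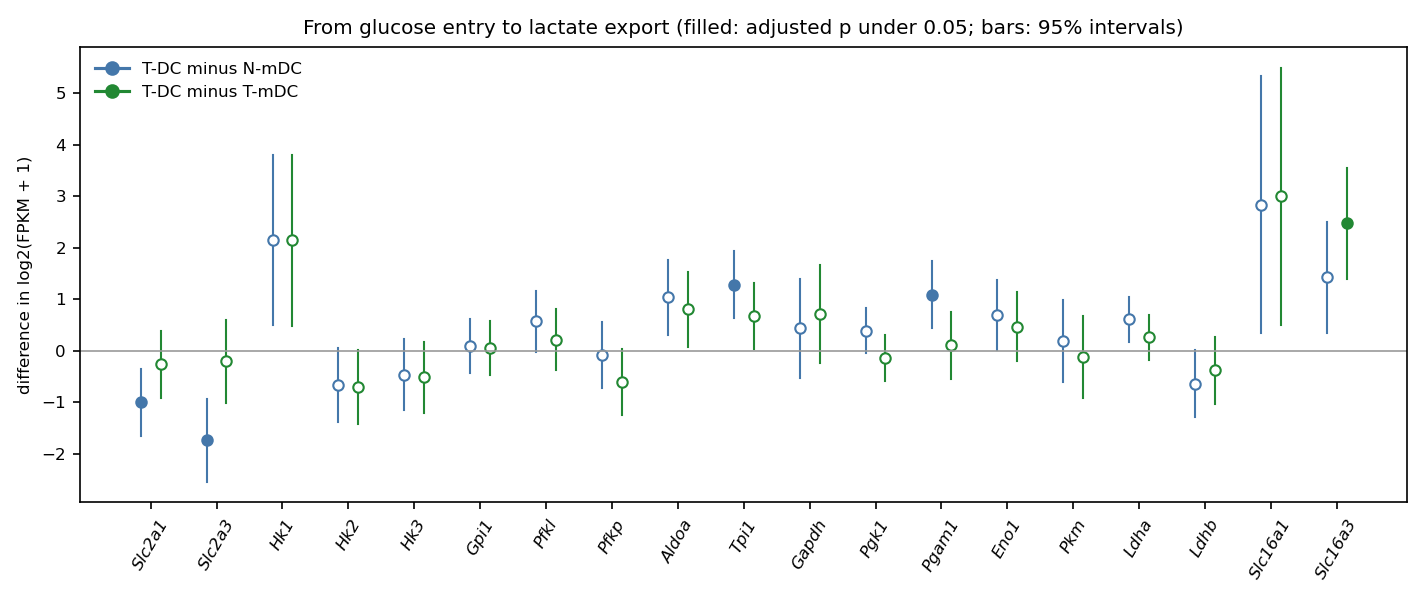
Differences in log2(FPKM + 1) of T-DCs from N-mDCs (blue) and from T-mDCs (green), in the order of the pathway from glucose entry to lactate export, with 95% intervals from limma. Filled points passed an adjusted p of 0.05: Slc2a1, Slc2a3, Tpi1 and Pgam1 against N-mDCs, and Slc16a3 against T-mDCs.

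At the exit, 7 of 8 lactate and pyruvate carriers were tested, and 1 was called higher in T-DCs than in T-mDCs, none in other comparisons. Slc16a3 (MCT4), the lactate exporter of glycolytic cells, had 44.4, 28.8 and 19.1 FPKM in T-DCs, 9.76, 2.98 and 2.69 in T-mDCs (2.48, adjusted p = 0.0121) and 6.66, 10.7 and 14.7 in N-mDCs (1.43, adjusted p = 0.0720). T-DCs were above all samples of both other groups. Slc16a1 (MCT1), a carrier that red cells also bear, was at 121 and 68.1 FPKM in T-DC samples 2 and 3 and at 1.89 to 4.72 FPKM in the other 7 (adjusted p = 0.105 against N-mDCs).

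The enzymes that set fructose 2,6-bisphosphate, the activator of phosphofructokinase, were tested in 4 of 5 cases, with 1 called higher against N-mDCs and 2 higher and 1 lower against T-mDCs. Pfkfb3, the inducible form, had 18.5, 10.2 and 6.69 FPKM in T-DCs and 57.4, 75.9 and 77.9 in T-mDCs, a fall of 2.57 (adjusted p = 0.0105), and 63.0, 17.3 and 38.5 FPKM in N-mDCs (-1.60, adjusted p = 0.0523). Pfkfb4 rose against T-mDCs (18.5, 12.1 and 9.08 against 7.71, 4.0 and 4.58 FPKM, 1.13, adjusted p = 0.0344). Pfkfb2 rose against both groups (0.75 and 0.71, adjusted p = 0.0331 and 0.0427), and reached no more than 1.97 FPKM. Its calls were lost in 15 and 16 of 22 alternatives, and without T-DC samples 2 and 3 the differences were 0.49 and 0.46 (adjusted p = 0.287 and 0.318).

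Where pyruvate enters the mitochondrion, 3 of the 11 tested genes of pyruvate dehydrogenase and its kinases were called higher in T-DCs than in N-mDCs and 1 higher than in T-mDCs. Pdha1, the catalytic subunit, rose in both, with 43.9, 29.9 and 32.6 FPKM in T-DCs, 13.5, 12.1 and 15.5 in N-mDCs (1.30, adjusted p = 0.0104) and 20.5, 13.0 and 11.6 in T-mDCs (1.21, adjusted p = 0.0154). Pdk1, the kinase that switches the complex off, rose to 10.5, 6.99 and 9.10 from 3.93, 3.83 and 3.66 FPKM in N-mDCs (1.02, adjusted p = 0.0307). Dlat, the acyl carrier subunit, rose by 0.68 (adjusted p = 0.0444). In the citrate cycle 1 of 17 tested genes was called in each T-DC comparison, Ogdh against N-mDCs (0.65, adjusted p = 0.0322) and Dlst against T-mDCs (0.72, adjusted p = 0.0222).

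The pentose phosphate pathway, the branch that yields NADPH and ribose, had 2 of 9 tested genes called higher in T-DCs in both comparisons. G6pdx, its first enzyme, had 70.3, 63.5 and 51.6 FPKM in T-DCs, 20.2, 24.9 and 25.6 in N-mDCs (1.35, adjusted p = 0.00917) and 31.3, 17.8 and 18.2 in T-mDCs (1.46, adjusted p = 0.00727). Tkt, which links the branch back to glycolysis, rose by 0.84 (adjusted p = 0.0266) and 0.88 (adjusted p = 0.0238). Of 14 tested genes of gluconeogenesis and glycogen, 2 were called higher against N-mDCs and 1 against T-mDCs. Pck2, the mitochondrial phosphoenolpyruvate carboxykinase, had 5.71, 32.0 and 43.7 FPKM in T-DCs and 2.35 to 4.93 in all other samples (2.30, adjusted p = 0.0379, and 2.42, adjusted p = 0.0350), and with the red cell genes as a covariate its difference from T-mDCs turned to -0.03. Phka2, a regulatory subunit of phosphorylase kinase, rose against N-mDCs (0.95, adjusted p = 0.0330).

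Among the regulators, Hif1a had 11.5 to 20.1 FPKM in N-mDCs, 18.3, 11.3 and 6.69 in T-DCs, with T-mDCs at 16.4 to 17.4, and differed by -0.51 and -0.56 (adjusted p = 0.302 and 0.296). Vhl, part of the ligase that marks Hif1a for breakdown, was the 1 of 7 tested genes of its list that was called: 11.8, 7.94 and 7.19 FPKM in T-DCs, 18.1, 15 and 16.4 in N-mDCs (-0.83, adjusted p = 0.0257) and 18.0, 20.6 and 20.6 in T-mDCs (-1.08, adjusted p = 0.0106). Without T-DC samples 2 and 3 these were -0.45 (adjusted p = 0.197) and -0.69 (adjusted p = 0.0728), and the call against N-mDCs was lost in 12 of 23 alternatives. Of 16 tested hypoxia targets outside glycolysis, 2 were called higher and 4 lower in T-DCs against N-mDCs, and 2 higher and 2 lower than in T-mDCs. Vegfa, the vessel growth factor, fell from 22.1, 14.4 and 37.6 to 0.743, 4.05 and 3.20 FPKM (-2.85, adjusted p = 0.00606), with 4.12, 7.52 and 7.74 FPKM in T-mDCs. Adm and Ndrg1 fell in both comparisons (Adm by 1.01 and 2.04, adjusted p = 0.0183 and 0.00184; Ndrg1 by 0.82 and 0.80, adjusted p = 0.0293 and 0.0345). Mxi1, a partner of Max that opposes Myc, rose by 1.88 and 1.75 (adjusted p = 0.00151 and 0.00213). Bnip3l, which clears mitochondria and does so in maturing red cells, rose by 1.70 and 1.67 (adjusted p = 0.00455 and 0.00517).

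Of 15 tested growth and energy sensors, 1 was called higher and 3 lower in T-DCs against N-mDCs, and 3 lower than in T-mDCs. Irf4, a transcription factor of DCs and lymphocytes, had 2.31, 8.49 and 3.45 FPKM in T-DCs, 55.3, 39.6 and 46.3 in N-mDCs (-3.20, adjusted p = 0.00150) and 12.8, 16.7 and 16.2 in T-mDCs (-1.63, adjusted p = 0.0199). Mycl, the Myc family member of DCs, fell by 2.20 and 3.10 (adjusted p = 0.0135 and 0.00388), or by 1.1 (adjusted p = 0.0919, no longer called) and 2.0 (adjusted p = 0.0394) without T-DC samples 2 and 3, and Arrdc4, which curbs glucose uptake, fell by 1.32 and 1.33 (adjusted p = 0.00893 and 0.00948). Prkaa1, a catalytic subunit of AMP-activated kinase, rose against N-mDCs (0.80, adjusted p = 0.0257). Between T-mDCs and N-mDCs, 0 genes of the 11 pathway lists were called by limma, where only 0.690% of all tested genes were called higher and 1.52% lower. Over the 11 lists, 24 of 118 tested genes (20.3%) were called between T-DCs and N-mDCs, against 16.4% of all tested genes, and 19 (16.1%) between T-DCs and T-mDCs, against 14.2%. Of the 24, 8 were called without T-DC samples 2 and 3, and all 24 kept their direction in every alternative. The 16 lost, with adjusted p from 0.0519 to 0.31, included Adm, Aldoc, Arrdc4, Dlat, Eno2, G6pdx, Ogdh, Pck2, Pdk1, Prkaa1 and Tkt, and the difference of Pck2 was 0.62 in place of 2.30. Against T-mDCs, 12 of 19 were called without them, the 7 lost being Arrdc4, Dlst, Pck2, Pfkfb2, Pfkfb3, Tkt and Vhl (adjusted p from 0.0728 to 0.318; Pck2 at 0.74 in place of 2.42), and 18 of 19 kept their direction throughout, Pck2 being the exception. Of the 24, 4 genes, Pdha1, Vegfa, Irf4 and Mxi1, were past the threshold against N-mDCs in 23 of 23 alternatives.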

How the data were processed

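Bulk RNA was sequenced from 9 samples, 3 per group. The authors deposited 1 table of FPKM values per gene. Per the labels the genome build is mm10, and the aligner, the counter and their versions are not given in the sources used here. The deposited FPKM values times gene length and a library size recovered from the values gave whole reads (largest deviation 5.77e-05, all within 0.01). Groups follow the labels. Values were tested as log2(FPKM + 1) with limma 3.58.1 (R 4.3.3), all 9 samples in 1 fit with a variance trend, over the 12746 genes that reached an FPKM of 1 in 3 or more libraries, and two-sided p-values were Benjamini-Hochberg adjusted over all of them. Log2 differences understate the change of low genes. The text names the members, up to 6 genes per pathway list called in a T-DC comparison (by size of difference), Gapdh and 10 genes of neighbouring steps, and the genes most like the members in pattern. Hk3, Pfkl, Pfkm, Pklr, Eno1b, Slc2a4, Slc2a6 and Itgax were named after their values were seen. A called gene of the hypoxia list is not reported here by name. The members and lists were chosen with earlier results of these data known. Positions of genes are on mm10, checked against GENCODE M21 (GRCm38), and promoters came from RefSeq (GRCm38.p6). Alternatives were other pseudocounts, filters, scalings, weights, groups in the fit, a replicate block, a red cell covariate, voom on recovered reads and leaving out samples. The alternative without T-DC samples 2 and 3 was chosen after seeing the data.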

Additional observations from a re-analysis of the deposited data

How the results depend on the processing

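Of 690 alternative values for the members, 643 kept their side of the threshold, 16 lost and 31 gained a call, and 0 called values reversed. Against N-mDCs, members called in T-DCs numbered 2 in the reported fit, 1 each with no filter, TPM, only the 2 groups, T-mDC samples 2 and 3 averaged into 1, the red cell covariate, and without T-DC samples 2 and 3 (where T-DC sample 1 is assumed to vary like the other groups), 8 with array weights, and 0 to 4 on leaving out 1 sample. Against T-mDCs the 0 became 7 with array weights and 0 to 3 on leaving out 1 sample. For T-mDCs against N-mDCs the 0 became 1 each with quantile normalization, only the 2 groups, and without T-DC samples 2 and 3, 5 with array weights and 0 to 1 on leaving out 1 sample. In the test over 3 groups the 1 became 9 with array weights and 0 to 5 on leaving out 1 sample. Leaving out T-DC sample 1 gave the highest of each. The array weights did not converge (46.6 for T-DC sample 2), and no conclusion is drawn from that fit. It is counted all the same in the totals above and in the alternatives given for each gene.

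Genes called between T-DCs and N-mDCs, 2096, became 1070 with only the 2 groups, 8485 with array weights, 1394 with the T-mDC mean, 561 with the red cell covariate, 746 without T-DC samples 2 and 3 and 980 to 5030 on leaving out 1 sample. Between T-DCs and T-mDCs, 1813 became 1190 at an FPKM of at least 5, and in the same order 1036, 9923, 540, 0, 741 and 541 to 4475. Between T-mDCs and N-mDCs, 282 became 107 with a pseudocount of 0.1, 111 at an FPKM of at least 5, 99 with TPM, 173 with voom, 850 with only the 2 groups, 3841 with array weights, 23 with the T-mDC mean, 849 without T-DC samples 2 and 3 and 23 to 1022 on leaving out 1 sample. With the red cell covariate the difference of Pck2 between T-DCs and T-mDCs turned to -0.028. The causes were not tested.

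Deviations of same-numbered samples had correlations of -0.475 to 0.269, and not every sample was most like its own number. Between T-DCs and T-mDCs, both from leukemic mice, they were -0.071, -0.118 and 0.022. Deviations from means of 3 samples cannot decide whether the numbers pair the samples, and the sources used here do not say. The replicate block gave 1 member (Slc2a1 lost) and 1378 genes for T-DCs against N-mDCs, 0 members and 1253 genes against T-mDCs, and 0 members and 78 genes for T-mDCs against N-mDCs.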
